A study of Mus musculus with 15 samples.

Results

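The nuclear genes for the 5 enzyme complexes of oxidative phosphorylation were followed across 5 mouse embryonic stem cell lines. Members were the genes of the Affymetrix mouse genome array whose symbol starts with Nduf, Sdha, Sdhb, Sdhc, Sdhd, Uqcr, Cox4 to Cox8 or Atp5, taken from probe sets annotated to a single gene. The rule used no measured value. It found 94 of the 18193 genes on the array, on 185 probe sets, and each gene was represented by its probe set with the highest mean. They were 42 genes of complex I, 8 of complex II, 8 of complex III, 19 of complex IV and 17 of complex V. The symbol prefixes also took 12 assembly factors, 8 for complex I (Ndufaf1 to Ndufaf8) and 4 for complex II (Sdhaf1 to Sdhaf4), and these are kept apart below.

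The study asked how embryonic stem cells from fertilised embryos and from parthenogenesis differ in gene expression. Each line was measured on 3 arrays, 15 in all. NmB6D2 came from C57BL6 females mated with DBA2 males, and R1, which was bought in, descends from crossed 129S1/SvImJ and 129X1/SvJ mice. Both therefore had a father. The other 3 lines came from oocytes activated without sperm and hold only maternal chromosome sets. For OpB6D2 the oocytes were ovulated naturally by B6D2F1 females (C57BL6 mother, DBA2 father). FpB6D2 and FpB6CBA came from oocytes grown inside cultured preantral follicles of B6D2F1 and of B6CBAF1 (C57BL6 mother, CBA/ca father) females, and the follicles were taken from prepubertal animals aged 2 weeks. No line was drug-treated or genetically modified, as far as the labels say. Each line stands for 1 derivation, and oocytes of F1 females differ from one another in genotype, so a difference between lines cannot be told apart from a difference between individual embryos. The labels do not say whether the 3 arrays of a line are separate cultures, and p-values therefore measure only the spread between arrays.

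Oxidative phosphorylation takes place in the inner mitochondrial membrane. Complex I (NADH dehydrogenase) and complex II (succinate dehydrogenase) pass electrons to ubiquinone, complex III passes them on to cytochrome c, and complex IV (cytochrome c oxidase) hands them to oxygen. Complexes I, III and IV pump protons, and complex V, the ATP synthase, uses the proton gradient to make ATP. Some subunits are encoded by mitochondrial DNA and are not among the members. Mouse embryonic stem cells of the naive state are known to use both glycolysis and respiration.

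Values are log2 intensities as deposited. Testing required 3 or more arrays at or above 3.864, which is the overall median, and 93 of the 94 members met this. The exception was Ndufb4, whose own probe set read 2.82 to 3.03 as a mean of a line. The probe sets that Ndufb4 shares with Ndufb4b and Ndufb4c read 10.68 to 11.02 and 9.93 to 10.34, so probe sets for this gene disagree. The members varied little between arrays of a line, with a median SD of 0.04 and a highest SD of 0.31.

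The pluripotency markers Pou5f1, Nanog, Sox2, Zfp42 and Esrrb averaged 9.94 to 11.17 on each array, lowest in FpB6CBA (9.94 to 10.01) and highest in R1 (11.04 to 11.17). Nanog averaged 9.81 in FpB6CBA and 10.43 to 11.39 in the other lines. Zfp42 set R1 apart most, at 11.36 against 8.22 to 9.15 in the other lines. R1 was also highest for Sox2 (11.26) and Esrrb (10.31). Pou5f1 was higher in OpB6D2 (12.02) and FpB6D2 (12.01) than in R1 (11.71), and so was Nanog (11.29 and 11.39, against 10.98). Means over the marker lists of other cell types were 5.67 to 6.87 for fibroblasts (feeder cells), 5.33 to 7.78 for trophectoderm, 5.04 to 6.66 for primitive endoderm and 3.46 to 3.97 for skeletal and heart muscle. By list mean, trophectoderm markers were lowest in OpB6D2 (5.33 to 5.59) and highest in NmB6D2 (7.69 to 7.78). Fibroblast markers were lowest in NmB6D2 (5.67 to 5.84) and highest in R1 (6.80 to 6.87). Primitive endoderm markers were highest in FpB6CBA (6.45 to 6.66). Each list was split. Elf5, Krt7, Krt8 and Krt18 were highest in NmB6D2, but Eomes (10.08) and Cdx2 (4.25) in R1 and Gata3 in FpB6D2 (4.95). Col1a1, Col1a2, Col3a1 and Postn were highest in R1, but Thy1 was lowest there (5.95). Ccl2 was highest in FpB6D2 (8.27) and Dcn in FpB6CBA (5.97). Gata6, Sox17 and Dab2 were highest in FpB6CBA, but Gata4 (7.40) and Pdgfra (6.93) in R1 and Sox7 in FpB6D2 (6.58). The part of other cell types in the differences below was not tested. In such bulk samples, fewer cells of a type and less RNA per cell cannot be told apart.

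The members differed between lines often, but over smaller distances than all genes tested. By limma's moderated F test over the 5 lines, 89 of the 93 tested members passed an adjusted p of 0.05, beside 87.0% of all 12813 genes tested. The distance between the highest and the lowest mean of a line had a median of 0.49 log2 units over the members (0.14 to 2.92), against 0.74 over all genes tested. A distance of at least 1 log2 unit was reached by 10 of 93 members (10.8%) and by 32.9% of all genes. Members were also the more strongly expressed, with 62 of 93 at a mean of at least 10 against 944 of 12813 genes. These distances were not matched for level. The members that missed the F test were Ndufb6 of complex I (adjusted p = 0.34), Atp5pb of complex V (0.23) and the testis- and muscle-type isoforms Cox8c (0.084) and Cox8b (0.2) of complex IV. By complex the median distance was 0.58 in complex I, 0.55 in II, 0.38 in III, 0.37 in IV and 0.35 in V.

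FpB6CBA was the highest line for most members, while FpB6D2 was highest at close to its share of all genes. FpB6CBA was the highest line for 49 of 93 members (52.7%, against 24.4% of all genes tested) and FpB6D2 for 23 (24.7%, against 22.7%). OpB6D2 was highest for 15 (16.1%, against 13.7%), R1 for 5 (5.38%, against 24.6%) and NmB6D2 for 1 (1.08%, against 14.6%). That 1 was the complex II anchor gene Sdhd. At the other end, R1 was the lowest line for 38 members (40.9%, against 31.2% of all genes) and NmB6D2 for 29 (31.2%, against 15.1%). Relative to the mean of the 5 lines, the median member stood at 0.17 in FpB6CBA, 0.10 in FpB6D2, -0.03 in OpB6D2, -0.09 in NmB6D2 and -0.12 in R1. In complex I the same medians were 0.21, 0.12, -0.04, -0.16 and -0.14. With arrays centred on their medians, FpB6CBA was highest for 46 members (49.5%, against 23.3% of all genes) and FpB6D2 for 34 (36.6%, against 28.1%). R1 was then lowest for 53 (57%, against 36.6%) and NmB6D2 for 19 (20.4%, against 12.4%).

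**Figure D1:**
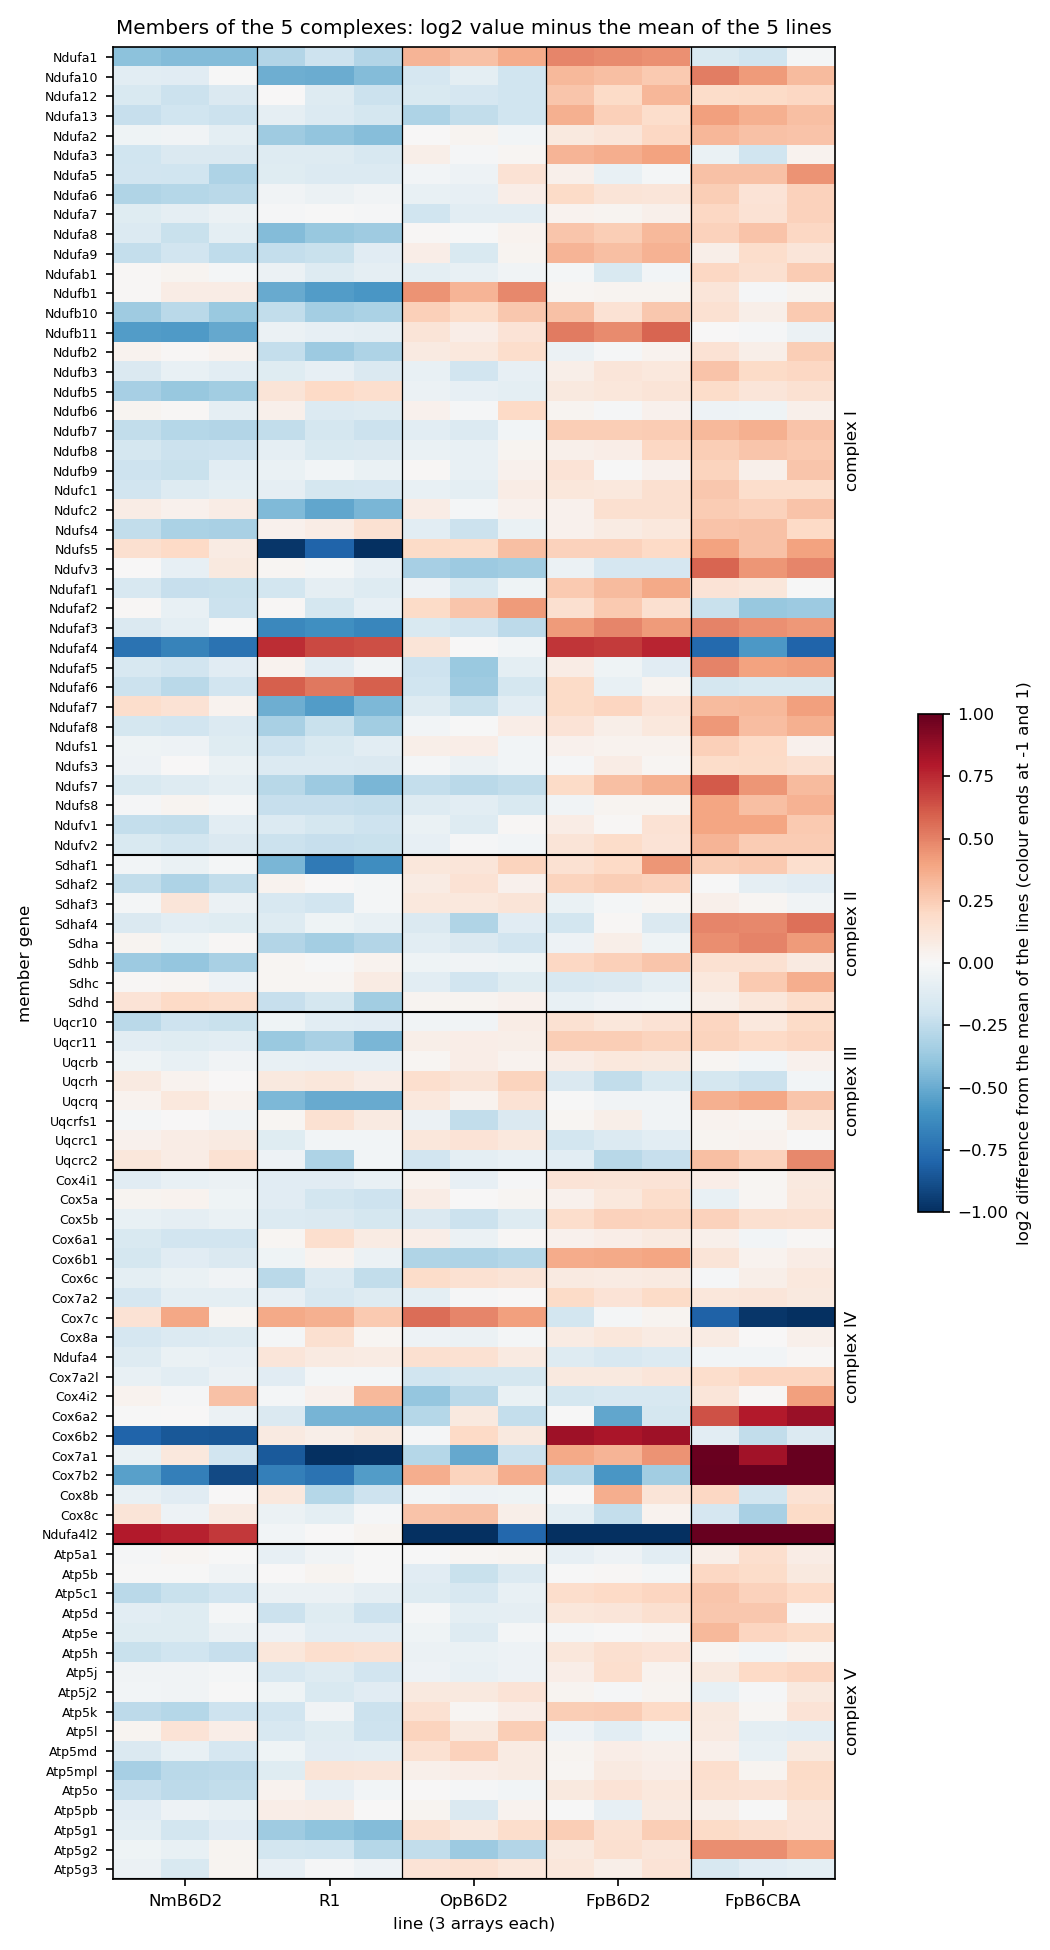
Log2 value of each of the 93 tested members (rows, by complex and role) on each of the 15 arrays (columns, 3 per line), minus the mean of the 5 lines; red is higher, blue lower, and the colour ends at -1 and 1. Complex I rows are mostly red in FpB6D2 and FpB6CBA, whose median deviations there are 0.12 and 0.21. The few rows of strong colour are Ndufa4l2, Cox6b2, Cox7a1, Cox7b2, Cox7c, Ndufaf4 and Ndufs5. The values of Cox7c, 3.19 to 4.79, lie near the filter value.

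The arrays of the follicle lines also differed from the others in control probe sets. Hybridisation control probe sets averaged 10.51 in FpB6CBA and 10.36 in FpB6D2, against 10.01 in NmB6D2, 9.97 in OpB6D2 and 9.91 in R1. Poly-A controls averaged 8.99 and 8.36, against 7.95, 8.10 and 8.04. The 3' minus 5' difference of the actin probe sets, a measure of RNA and labelling length, was 0.70 and 0.63, against 0.51, 0.53 and 0.53. The same difference for Gapdh was 0.04 and -0.06, against 0.07, 0.06 and 0.08. FpB6CBA replicate 3 stood apart from the other arrays of its line, with hybridisation controls of 10.06 and poly-A controls of 9.60. Without it FpB6CBA was the highest line for 46 of 93 members (49.5%, against 25.2% of all genes). Over the 944 genes with a mean of at least 10, FpB6CBA was highest for 24.7%. The share for members at that level was not counted. The median difference between FpB6D2 and NmB6D2 was 0.01 over the 944 genes, against 0.22 over the 62 members at that level. These sets were matched in level only. The part of the array differences in the results was not tested.

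**Figure D2:**
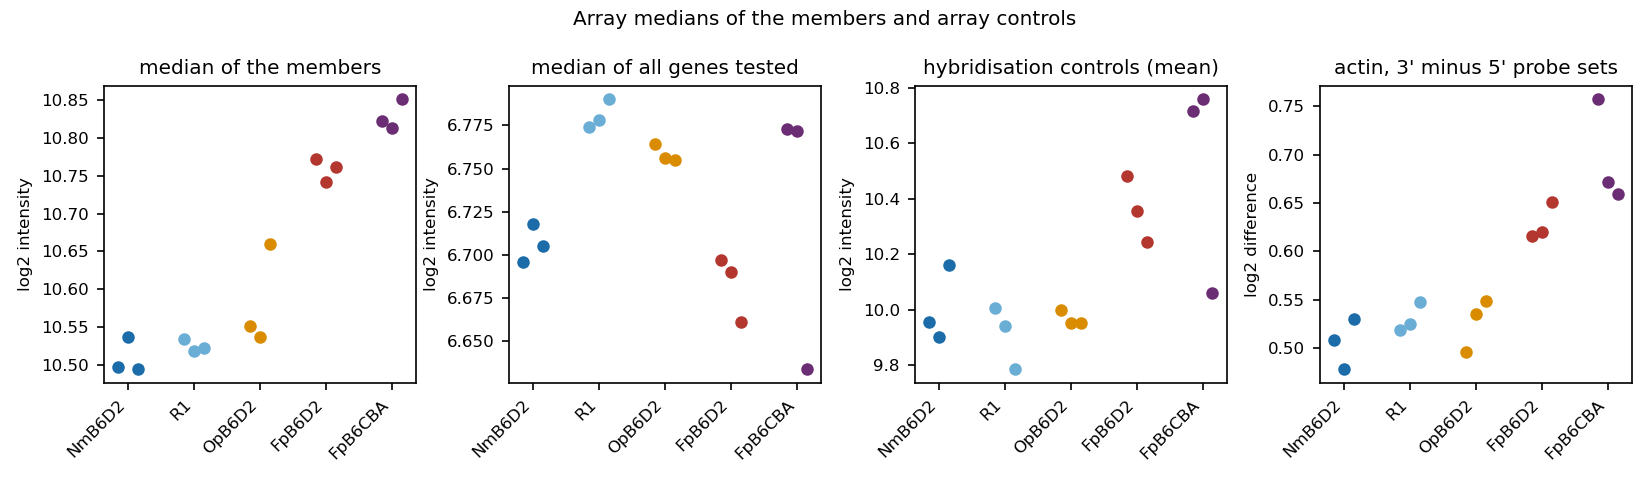
Median log2 intensity of the 93 tested members, median of all genes tested, mean of the hybridisation controls and 3' minus 5' difference of the actin probe sets, with 1 point per array and 3 arrays per line. The member medians of FpB6D2 and FpB6CBA (10.76 and 10.83 as means of the lines) lie above all arrays of the other 3 lines (means of 10.51 to 10.58), and so do their actin differences.

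Most complex I members were higher in FpB6D2. Against NmB6D2, FpB6D2 was higher for 29 of 41 complex I members at an adjusted p under 0.05 and lower for 0, with a median of 0.27. Over all members the counts were 55 higher and 6 lower of 93 (median 0.21), beside 31.3% higher and 29.0% lower of all genes tested (60.3% in all, median 0.02). Against OpB6D2, which shares the donor cross, FpB6D2 was higher for 27 and lower for 1 complex I member (median 0.18), and for all members 49 and 9 (median 0.14), beside 26.2% and 25.8% of all genes (52.0% in all, median 0.02). OpB6D2 against NmB6D2 gave 18 and 3 in complex I (median 0.11) and 35 and 12 in all (median 0.10), beside 27.0% and 22.7% (49.7% in all). With median centring the medians over all members were 0.05 in OpB6D2 against NmB6D2 and 0.21 in FpB6D2 against OpB6D2. These comparisons share lines and are not independent of each other. On the arrays themselves, all 3 FpB6D2 arrays lay above all 3 NmB6D2 arrays for 61 members, 32 of them in complex I, and below for 10, with 0 in complex I. Over all genes tested those shares were 35.4% and 33.1%. FpB6D2 lay above all OpB6D2 arrays for 53 members and below for 17, beside 30.3% and 29.6% of all genes.

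The core of complex I, which carries the flavin and the iron-sulphur clusters, had a median distance of 0.53 between its highest and lowest lines. Ndufs7, the core subunit near the ubiquinone site, read 10.94, 10.77 and 10.64 on the FpB6CBA arrays, 10.52, 10.63 and 10.68 in FpB6D2, 10.17, 10.20 and 10.23 in NmB6D2, 10.09, 10.06 and 10.08 in OpB6D2 and 10.05, 9.96 and 9.87 in R1. Both follicle lines lay above the other 3 without overlap. The difference of FpB6D2 from NmB6D2 was 0.41 ± 0.07 SE (adjusted p = 2.5e-04) and from OpB6D2 0.54 (adjusted p = 4.4e-05). These differences rest on 1 of 2 probe sets: the other averaged 9.83 in FpB6D2, 9.81 in NmB6D2 and 9.79 in OpB6D2, differences of 0.02 and 0.04. It too was highest in FpB6CBA (9.99) and lowest in R1 (9.58). FpB6CBA was the highest line for 6 of the 6 core subunits, and R1 the lowest for 5. Ndufv1, which binds NADH, was higher in FpB6D2 than in NmB6D2 by 0.27 ± 0.06 (adjusted p = 0.0017), and Ndufv2 by 0.31 ± 0.05. Ndufs1, Ndufs3 and Ndufs8 did not pass there (0.11, 0.07 and 0.01).

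Among the 27 tested accessory subunits of complex I, which surround the core, 20 were higher and 0 lower in FpB6D2 than in NmB6D2 (median 0.31). Ndufs5 behaved differently. It read 9.39, 9.56 and 9.28 in R1, and between 10.44 and 10.76 on the 12 arrays of the other lines. R1 was thus below every other array, by 1.10 ± 0.07 against NmB6D2 (2.14-fold, adjusted p = 6.4e-09). A probe set shared with the pseudogene Ndufs5-ps showed a smaller gap, with 10.03 in R1 and 10.33 to 10.54 in the other lines, so the size rests on 1 probe set. R1 was also below all other arrays for Ndufb1 (5.99 to 6.07, against 6.56 to 7.05), Ndufc2 (10.68 to 10.76, against 11.18 to 11.48) and Ndufa10 (9.95 to 10.01, against 10.25 to 10.96). Against NmB6D2 these differences were -0.60, -0.54 and -0.40. By the probe sets used, Ndufb6 had the narrowest spread of the complex, 0.15 between the means of the lines. Its other probe set ran more widely, from 10.58 in NmB6D2 to 10.91 in OpB6D2.

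The X-linked members were Ndufa1 and Ndufb11, both accessory subunits needed for assembly of the membrane arm. Ndufb11 read 11.76, 11.71 and 11.82 in FpB6D2, 11.37, 11.31 and 11.38 in OpB6D2, 11.24, 11.23 and 11.18 in FpB6CBA, 11.18, 11.16 and 11.15 in R1, and 10.68, 10.67 and 10.73 in NmB6D2. FpB6D2 and OpB6D2 stood above the rest and NmB6D2 below all. FpB6D2 exceeded NmB6D2 by 1.07 ± 0.05 (2.10-fold, adjusted p = 3.4e-10), and OpB6D2 did so by 0.67. Its other 2 probe sets also had their highest mean in FpB6D2 and their lowest in NmB6D2. Ndufa1 read 12.01 to 12.04 in FpB6D2, 11.84 to 11.92 in OpB6D2, 11.35 to 11.53 in FpB6CBA, 11.26 to 11.34 in R1 and 11.12 to 11.14 in NmB6D2. It was higher than in NmB6D2 by 0.89 ± 0.05 in FpB6D2 and by 0.75 in OpB6D2, and lower in FpB6CBA than in FpB6D2 by 0.60. The 414 X-linked genes tested had medians in the same direction, 0.44, 0.50 and -0.47 in these 3 comparisons. The 91 tested autosomal members kept medians of 0.21 for FpB6D2 and 0.10 for OpB6D2 against NmB6D2.

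**Figure D3:**
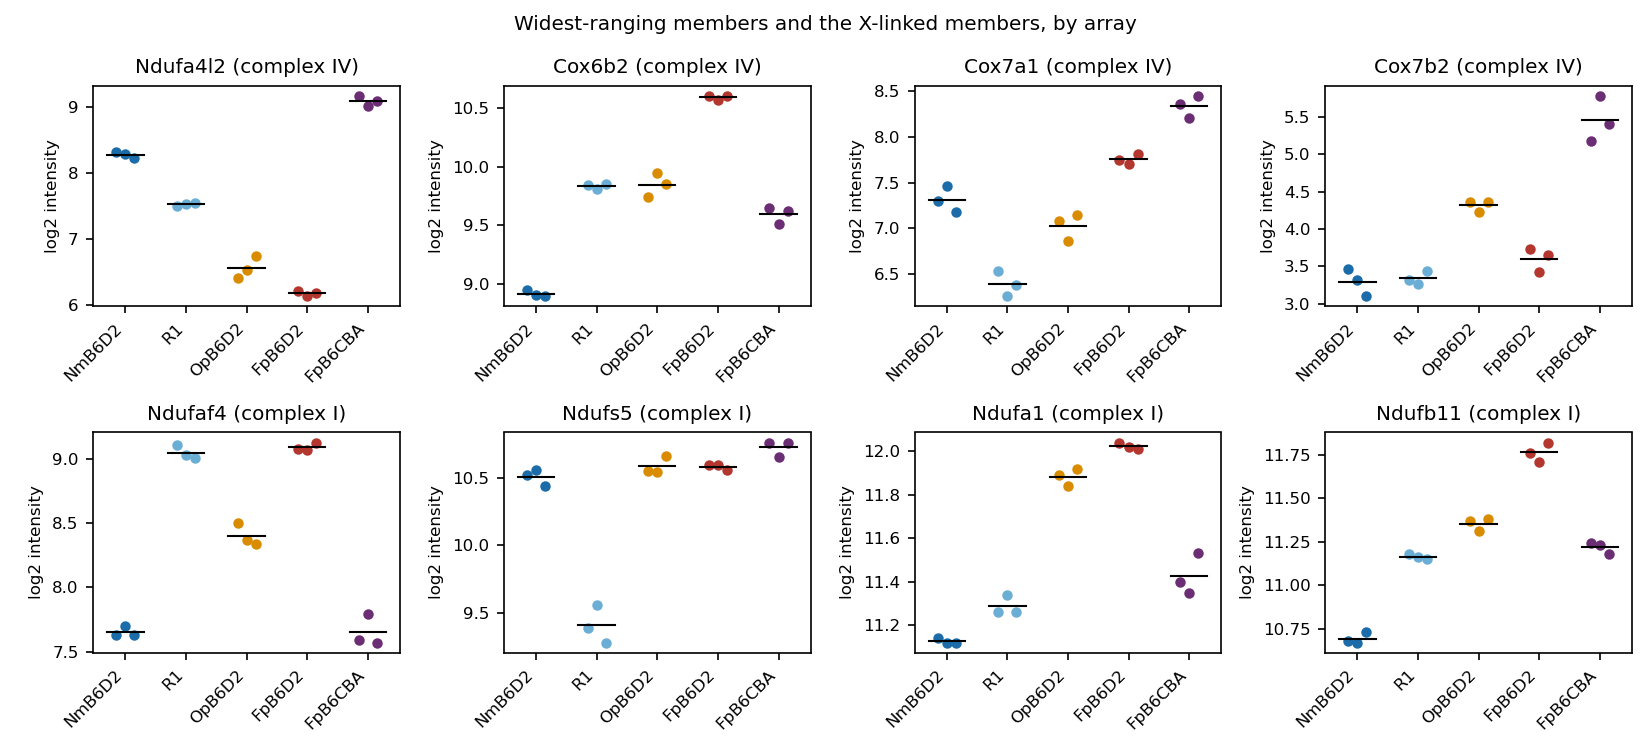
Log2 intensity (vertical axis, own scale in each panel, not starting at 0) of 8 members on each array; points are arrays, bars the mean of the 3 arrays of a line. Ndufa4l2 spans 2.92 log2 units between FpB6CBA and FpB6D2, Ndufs5 is low in R1 alone, and Ndufa1 and Ndufb11, both X-linked, are highest in FpB6D2 and lowest in NmB6D2.

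The assembly factors help build complex I and are not part of the finished enzyme. Ndufaf4, needed early in assembly, split the lines into high and low. It read 9.08, 9.07 and 9.13 in FpB6D2, 9.11, 9.03 and 9.01 in R1, 8.50, 8.37 and 8.34 in OpB6D2, 7.63, 7.70 and 7.63 in NmB6D2 and 7.59, 7.79 and 7.57 in FpB6CBA. FpB6D2 and R1 overlapped at the top, NmB6D2 and FpB6CBA overlapped at the bottom, and OpB6D2 lay between. The difference was 1.44 ± 0.07 for FpB6D2 against NmB6D2 (2.71-fold, adjusted p = 3.7e-10), 1.40 for R1 against NmB6D2 (2.63-fold, adjusted p = 3.6e-10) and -1.44 for FpB6CBA against FpB6D2 (2.72-fold lower, adjusted p = 3.1e-10). A second probe set also had its lowest means in FpB6CBA (5.08) and NmB6D2 (5.36), with 6.09 in FpB6D2, 6.44 in OpB6D2 and 7.41 in R1. Myc is a transcription factor with known targets among mitochondrial genes. It averaged 5.10 in FpB6CBA, 7.40 in NmB6D2, 7.53 in FpB6D2, 7.61 in OpB6D2 and 7.90 in R1. The part of Myc in the values of Ndufaf4 was not tested.

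Ndufaf3, which works with Ndufaf4, did not share this pattern. It read 8.55 to 8.61 in FpB6CBA, 8.54 to 8.60 in FpB6D2, 7.97 to 8.11 in NmB6D2, 7.85 to 7.96 in OpB6D2 and 7.46 to 7.50 in R1. The follicle lines overlapped each other and lay above the other 3, with FpB6D2 higher by 0.53 ± 0.05 than NmB6D2 (adjusted p = 7.0e-07) and by 0.66 than OpB6D2 (adjusted p = 2.8e-07). Ndufaf6 was highest in R1 (8.14, against 7.32 to 7.61), by 0.80 over NmB6D2. Over the 8 complex I assembly factors, FpB6D2 was higher than NmB6D2 for 6 and lower for 0.

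The sequence before the start of Ndufaf4 is shown because it holds a full match to the binding letters of NRF1, a transcription factor known for its targets among respiratory chain genes, as does that of Atp5g2, the complex V member of widest range. Both are 250 bases up to the base before the annotated start, from RefSeq on GRCm38.p6, at chr4:24897833-24898082 on the plus strand and chr15:102671048-102671297 on the minus strand. Capitals mark the NRF1 match, whose letters read the same on both strands.
Ndufaf4: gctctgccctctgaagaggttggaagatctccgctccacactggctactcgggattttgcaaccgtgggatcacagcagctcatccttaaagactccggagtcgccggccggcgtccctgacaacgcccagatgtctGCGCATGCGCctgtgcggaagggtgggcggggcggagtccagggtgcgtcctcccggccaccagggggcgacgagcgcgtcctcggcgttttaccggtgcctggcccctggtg
Atp5g2: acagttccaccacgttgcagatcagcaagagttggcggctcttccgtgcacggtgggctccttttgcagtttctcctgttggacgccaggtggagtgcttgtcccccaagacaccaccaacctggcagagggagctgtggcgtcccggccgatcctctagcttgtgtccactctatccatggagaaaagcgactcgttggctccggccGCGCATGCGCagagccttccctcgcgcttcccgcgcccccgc
Of the 94 members, 78 had such a window. The NRF1 letters stood in 4 of the 78 (5.1%: Ndufaf4, Atp5g2, Atp5k and Cox6a1) and in 0.9% of 27025 genes. On either strand, CCGGAAGT (ETS factors) stood in 3.8% of members and 3.2% of genes, CACGTG (E-box) in 7.7% and 6.9%, AAGATGGC (YY1) in 1.3% and 1.8%, and ACGTG or GCGTG (core of the hypoxia response element, which overlaps the E-box) in 56.4% and 41.5%. A match is a description of letters. The NRF1 and hypoxia letters contain CpG, and windows of members held a median of 15 CpGs, against 6 in windows of all genes. The shares were not matched for CpG content. The 4 genes with the NRF1 letters had different highest lines: FpB6D2 for Ndufaf4 and Atp5k, FpB6CBA for Atp5g2 and R1 for Cox6a1.

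Complex II links the citric acid cycle to the chain, and its 4 subunits did not move together. Sdhb, the iron-sulphur subunit, read 10.91, 10.94 and 10.98 in FpB6D2, 10.86, 10.86 and 10.79 in FpB6CBA, 10.70 to 10.74 in R1, 10.66 to 10.67 in OpB6D2 and 10.34, 10.32 and 10.38 in NmB6D2. NmB6D2 was the low line, 0.60 ± 0.04 below FpB6D2 (adjusted p = 5.0e-08). Sdha, the flavoprotein that oxidises succinate, was instead high in FpB6CBA, at 10.84, 10.87 and 10.80 against 10.03 to 10.43 on all other arrays. FpB6CBA exceeded FpB6D2 by 0.48 ± 0.05 (adjusted p = 1.6e-06), while FpB6D2 and NmB6D2 differed by -0.01 (adjusted p = 0.86). A second Sdha probe set was also highest in FpB6CBA (10.16), but put FpB6D2 (9.56) below NmB6D2 (9.91), a difference of -0.35. The membrane anchors Sdhc and Sdhd were higher in FpB6CBA than in FpB6D2 by 0.38 and 0.18. Sdhd was lower in FpB6D2 than in NmB6D2 by 0.23, the reverse of Sdhb, and lower in R1 by 0.42.

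The assembly factors of complex II differed again. Sdhaf1 was low in R1, at 7.33, 7.08 and 7.17 against 7.72 to 8.23 elsewhere, and R1 fell below NmB6D2 by 0.55 (adjusted p = 2.6e-05). Sdhaf4 was high in FpB6CBA, at 8.81 to 8.88 against 8.03 to 8.34 elsewhere. Sdhaf3 varied least, by 0.24 between the means of the lines.

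Complex III showed no one-sided shift. FpB6D2 was higher than NmB6D2 for 3 and lower for 3 of its 8 members, with a median of -0.03. Both core proteins, Uqcrc1 and Uqcrc2, were lower in FpB6D2 than in NmB6D2, by 0.21 and 0.32, while the accessory subunits Uqcr10 and Uqcr11 were higher by 0.37 and 0.35. The 3 probe sets of Uqcr10 disagreed on FpB6CBA. The one used made it the highest line (10.90), whereas the others averaged 4.34 and 5.66 in FpB6CBA against 8.09 and 8.47 in FpB6D2, and 7.18 to 7.78 and 8.05 to 8.23 in the remaining lines. Differences of -3.75 and -2.81 between the follicle lines on these probe sets stood beside 0.04 on the one used, and they were not tested. Uqcrc2 read 10.78 to 11.03 in FpB6CBA, above the 10.24 to 10.70 of the other lines, and exceeded FpB6D2 by 0.54 ± 0.08 (adjusted p = 5.5e-05). Uqcrq, an accessory subunit, was low in R1, at 10.59, 10.54 and 10.54 against 11.01 to 11.43 elsewhere, which put R1 below NmB6D2 by 0.55 (adjusted p = 3.1e-07). Uqcrfs1, the Rieske iron-sulphur protein that carries out the transfer, did not pass in that comparison (0.10) or in FpB6D2 against NmB6D2 (0.03). Uqcrb varied least, by 0.17.

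By the probe sets used, the members of widest range were in complex IV. Several of its nuclear subunits exist as a widely expressed form and a form typical of heart, muscle, lung or testis. The 8 tissue-restricted members were Cox4i2, Cox6a2, Cox6b2, Cox7a1, Cox7b2, Cox8b, Cox8c and Ndufa4l2. Their median distance between lines was 1.40 log2 units, and 5 of 8 reached 1. The 10 other accessory subunits, among them Cox4i1, Cox6a1, Cox6b1, Cox7a2, Cox8a and Ndufa4, had a median of 0.29, and 1 of 10 reached 1. That 1 was Cox7c, whose values of 3.19 to 4.79 lay near the filter value. Cox7b, the partner of Cox7b2, is not analysed here. The muscle markers were at or near background, with 2 of 6 passing the filter and means of 3.46 to 3.97.

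Ndufa4l2, a paralogue of Ndufa4 known as a hypoxia-induced gene, had the widest range of any member by the probe sets used. It read 9.17, 9.02 and 9.09 in FpB6CBA, 8.32, 8.29 and 8.23 in NmB6D2, 7.50, 7.53 and 7.55 in R1, 6.41, 6.53 and 6.74 in OpB6D2 and 6.21, 6.13 and 6.18 in FpB6D2. No pair of lines overlapped. It was 7.58-fold higher in FpB6CBA than in FpB6D2 (2.92 ± 0.07, adjusted p = 9.8e-13), 3.30-fold lower in OpB6D2 than in NmB6D2 (-1.72 ± 0.07, adjusted p = 3.3e-10) and 4.31-fold lower in FpB6D2 than in NmB6D2 (-2.11, adjusted p = 2.7e-11). The kinase gene Pdk1 is a brake on pyruvate oxidation and is also known to respond to hypoxia. It averaged 10.45 in FpB6CBA, 10.47 in NmB6D2, 9.55 in R1, 9.15 in OpB6D2 and 7.94 in FpB6D2. A part of hypoxia in the values of either gene was not tested. Ndufa4 itself ranged over 0.28, with FpB6D2 at 10.71 and OpB6D2 at 10.99, and FpB6D2 was lower than OpB6D2 by 0.28 (adjusted p = 1.4e-04).

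Cox6b2, a testis-type isoform of Cox6b1, read 10.60, 10.57 and 10.60 in FpB6D2, 9.74, 9.95 and 9.85 in OpB6D2, 9.84, 9.81 and 9.85 in R1, 9.65, 9.51 and 9.62 in FpB6CBA and 8.95, 8.91 and 8.90 in NmB6D2. FpB6D2 was above and NmB6D2 below every other array, and OpB6D2 and R1 overlapped. The difference of FpB6D2 from NmB6D2 was 1.67 ± 0.06 (3.17-fold, adjusted p = 3.0e-11). OpB6D2 and R1 exceeded NmB6D2 by 0.92 and 0.91, and FpB6CBA was below FpB6D2 by 1.00 ± 0.06, which is 1.99-fold and just under the 2-fold minimum. Cox6b1 was also highest in FpB6D2, at 12.56 to 12.59 against 11.88 to 12.32 elsewhere. It exceeded NmB6D2 by 0.52 ± 0.05 and OpB6D2 by 0.68 ± 0.05.

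Cox7a1, the heart and muscle isoform, read 8.36, 8.21 and 8.45 in FpB6CBA, 7.75, 7.71 and 7.82 in FpB6D2, 7.30, 7.47 and 7.18 in NmB6D2, 7.08, 6.86 and 7.15 in OpB6D2 and 6.53, 6.26 and 6.38 in R1. The lines were ranked with no overlap. FpB6D2 exceeded OpB6D2 by 0.73 ± 0.10 (1.66-fold, adjusted p = 3.1e-05), and R1 was below NmB6D2 by 0.93 (1.90-fold, adjusted p = 1.3e-06). Its widely expressed partner Cox7a2 moved far less, between 12.24 and 12.60 on the 15 arrays, with FpB6D2 above NmB6D2 by 0.30. Cox6a2, another heart and muscle isoform, was high in FpB6CBA alone (6.17, 6.33 and 6.40, against 5.02 to 5.63), by 1.00 ± 0.13 over FpB6D2 (1.99-fold, adjusted p = 1.5e-05).

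The windows before Cox7a1 and Cox7a2 are shown because the pair differed in range between lines and differs in CpG content. They lie at chr7:30183921-30184170 on the plus strand and chr9:79759854-79760103 on the minus strand (RefSeq, GRCm38.p6), with each CpG in capitals.
Cox7a1: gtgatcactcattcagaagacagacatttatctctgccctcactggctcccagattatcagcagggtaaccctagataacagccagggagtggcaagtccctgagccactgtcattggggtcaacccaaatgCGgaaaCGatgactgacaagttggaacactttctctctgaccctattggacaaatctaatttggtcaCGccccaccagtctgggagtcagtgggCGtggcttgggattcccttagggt
Cox7a2: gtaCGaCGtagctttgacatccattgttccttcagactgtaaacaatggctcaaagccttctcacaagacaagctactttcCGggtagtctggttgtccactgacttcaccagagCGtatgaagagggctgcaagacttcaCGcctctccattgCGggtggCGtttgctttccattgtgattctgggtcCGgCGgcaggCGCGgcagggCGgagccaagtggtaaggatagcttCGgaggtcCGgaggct
The Cox7a1 window held 4 CpGs and that of Cox7a2 14. The 4 tissue-restricted members with a window held 1 to 9 (median 6.0), the 74 other members 4 to 39 (median 15.5) by the window of a gene with most CpGs. Per window the median was 15 for members and 6 for all genes. These are counts of letters, and methylation was not measured.

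Cox7b2, a testis-type isoform, lay under the filter value on every array of 3 lines. It passed the filter only through FpB6CBA and OpB6D2, the lines where it was high. It read 5.18, 5.78 and 5.40 in FpB6CBA, 4.36, 4.22 and 4.36 in OpB6D2, and 3.10 to 3.73 in FpB6D2, R1 and NmB6D2. FpB6CBA was at least 3.01-fold above FpB6D2 (1.86 ± 0.13, adjusted p = 3.4e-08), where the bound is set against the filter value. OpB6D2 was at least 1.36-fold above NmB6D2 (1.02 ± 0.13, adjusted p = 2.3e-05), a bound under the 2-fold minimum. That call missed the 2-fold minimum without NmB6D2 replicate 4 (0.93), OpB6D2 replicate 1 (1.00) or OpB6D2 replicate 5 (1.00), and also with median centring (0.97). Cox4i2, Cox8b and Cox8c were weak, with means of 4.17 to 4.59, 4.13 to 4.42 and 5.98 to 6.30.

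Among the widely expressed subunits of complex IV, 7 of 10 were higher and 1 lower in FpB6D2 than in NmB6D2. Cox4i1 was higher by 0.21 ± 0.05, Cox6a1 by 0.24 and Cox8a by 0.23, all at an adjusted p of 0.0014 or less. The lower one was Cox7c, whose values of 3.19 to 4.79 lay near the filter value. Cox7a2l, a factor for joining complexes III and IV, was higher in FpB6D2 by 0.18 than in NmB6D2 (adjusted p = 0.003) and by 0.28 than in OpB6D2 (adjusted p = 1.4e-04). It was highest in FpB6CBA (10.82 to 10.86).

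Complex V had the smallest median distance between lines, 0.35. FpB6D2 was higher than NmB6D2 for 10 and lower for 0 of its 17 members (median 0.16). Of the F1 head, which makes the ATP, FpB6CBA was the highest line for 5 of 5 subunits. The catalytic subunit Atp5b and its partner Atp5a1 did not pass in FpB6D2 against NmB6D2 (0.02 and -0.08), whereas the central stalk subunit Atp5c1 was higher by 0.42 ± 0.05 (adjusted p = 2.3e-06). Other probe sets of Atp5a1, which were not tested, differed from the one used. A weaker one averaged 7.0 in FpB6D2 and 6.9 in FpB6CBA, against 5.4 in NmB6D2, 4.8 in OpB6D2 and 4.7 in R1. Another averaged 11.60 in FpB6D2 and 11.54 in NmB6D2. Atp5k, a small membrane subunit, was higher in FpB6D2 than in NmB6D2 by 0.48. By the probe sets used, Atp5pb varied least of all members, by 0.14 between the means of the lines. Its other probe set ran more widely, from 10.65 in NmB6D2 to 10.90 in R1.

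Subunit c, the rotor ring, has 3 genes for the same mature protein, and they differed in pattern. Atp5g2 read 12.01, 12.01 and 11.94 in FpB6CBA, 11.64, 11.71 and 11.67 in FpB6D2, 11.50, 11.47 and 11.57 in NmB6D2, 11.36, 11.35 and 11.26 in R1 and 11.30, 11.18 and 11.25 in OpB6D2. Only R1 and OpB6D2 overlapped. OpB6D2 was lower than NmB6D2 by 0.27 (adjusted p = 8.4e-04) and FpB6D2 higher than OpB6D2 by 0.43 (adjusted p = 1.7e-05). Atp5g1 went the other way in OpB6D2, 0.27 above NmB6D2 (adjusted p = 4.3e-04), and was lowest in R1, at 10.66 to 10.74 against 10.91 to 11.34 elsewhere. Atp5g3 was highest in OpB6D2 (12.48 to 12.52), by 0.19 over NmB6D2, and overlapped there with FpB6D2.

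**Figure D4:**
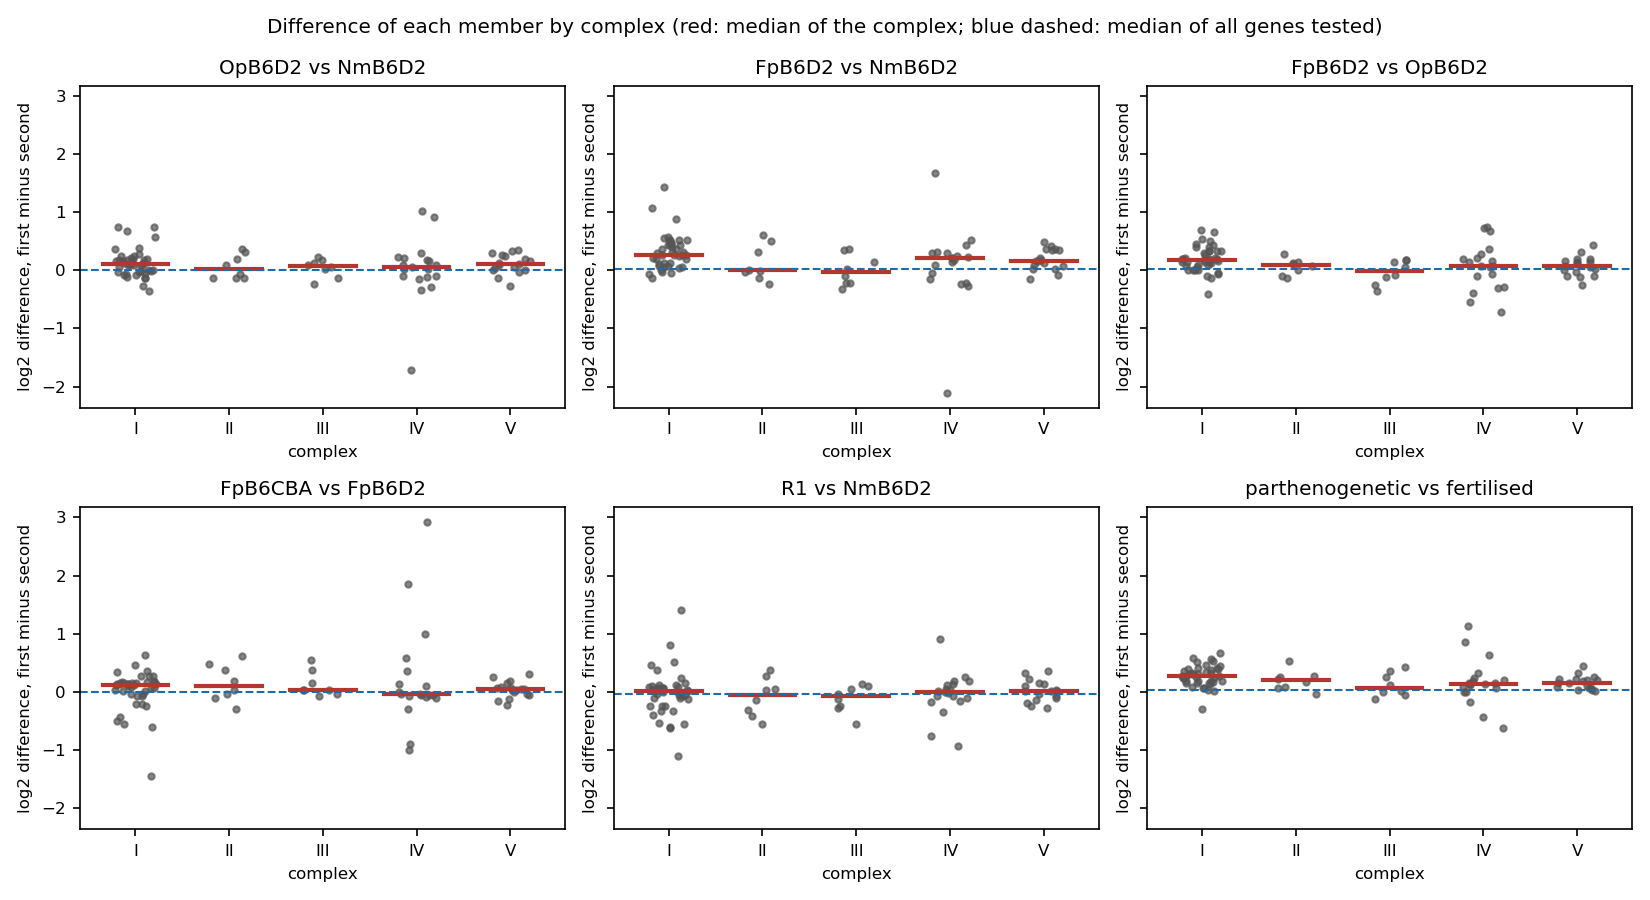
Log2 difference of each tested member (points, by complex) in the 5 comparisons between lines and in the comparison of 3 parthenogenetic with 2 fertilised lines; red bars are medians of a complex, the dashed line the median of all genes tested. In FpB6D2 against NmB6D2 the red bar of complex I is at 0.27 and that of complex III at -0.03. The points farthest from 0 there are Ndufa4l2 (-2.11) and Cox6b2 (1.67) of complex IV and Ndufaf4 (1.44) and Ndufb11 (1.07) of complex I.

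At the 2-fold minimum with an adjusted p under 0.05, few members were called. OpB6D2 against NmB6D2 gave 1 higher (Cox7b2) and 1 lower (Ndufa4l2), beside 3.24% and 2.60% of all genes. Cox7b2 passed the filter only through FpB6CBA and OpB6D2, where it was high, so its calls are not independent of the filter. Its bound against the filter value was under the 2-fold minimum in this comparison. FpB6D2 against NmB6D2 gave 3 higher (Cox6b2, Ndufaf4 and Ndufb11) and 1 lower (Ndufa4l2), beside 5.22% and 5.53%. FpB6D2 against OpB6D2 gave 0, beside 1.31% higher and 2.44% lower (3.75% in all). In limma, 62 of 93 members had an unadjusted p under 0.05 there, beside 7318 of 12813 genes. An adjusted p under 0.05 was reached by 58 members (62.4%), beside 52.0% of all genes. FpB6CBA against FpB6D2 gave 2 higher (Ndufa4l2 and Cox7b2) and 1 lower (Ndufaf4), beside 6.03% and 5.14%, and 5 in all without FpB6CBA replicate 1. R1 against NmB6D2 gave 1 higher (Ndufaf4) and 1 lower (Ndufs5), beside 7.39% and 5.49%.

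FpB6CBA was higher than FpB6D2 for 34 members and lower for 14 at an adjusted p under 0.05 (median 0.06, and 0.01 with median centring), beside 31.0% and 29.3% of all genes (60.3% in all). In complex I the counts were 17 and 8, with a median of 0.12. R1 was higher than NmB6D2 for 19 and lower for 27 (median 0.01), beside 31.0% and 31.9% (62.9% in all). All R1 arrays lay above all NmB6D2 arrays for 28 members and below for 34, beside 34.5% and 37.0% of all genes. The R1 median was -0.02 without NmB6D2 replicate 2 and -0.01 without R1 replicate 3.

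With the line as the replicate, mode of origin gave no call. The 3 parthenogenetic lines against the 2 fertilised lines had 0 members and 0 genes at an adjusted p under 0.05 in limma on the 5 line means. By the same fit, 2 of 93 members had an unadjusted p under 0.05, beside 606 of 12813 genes. The differences were above 0 for 84 of 93 members (90.3%), with a median of 0.19, against 54.2% and 0.03 over all genes tested. By complex they were above 0 for 40 of 41 in I, 7 of 8 in II, 5 of 8 in III, 15 of 19 in IV and 17 of 17 in V. All 3 parthenogenetic lines exceeded both fertilised lines for 39 members, beside 11.7% of all genes, and were below both for 0, beside 7.77%. The 39 held 21 members of complex I, 1 of II, 3 of III, 6 of IV and 8 of V. The median over members was 0.16 without FpB6CBA and 0.27 without OpB6D2. The follicle lines are 2 of the 3 parthenogenetic lines, and their array controls stood higher as given above, so these move in part with mode of origin. Their part in the contrast was not tested.

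Wider mitochondrial gene lists were counted in the same way. Of 76 genes for proteins of the mitochondrial ribosome, 48 were higher and 7 lower in FpB6D2 than in NmB6D2 (median 0.25), led by Mrps11 (1.12, 2.17-fold). All list counts here are at an adjusted p under 0.05 and stand beside the shares of all genes given above, 31.3% higher and 29.0% lower in that comparison. Of the lists, 72.4% of ribosomal genes, 75.0% of the assembly factors outside the rule, 90.9% of the carriers, 77.8% of the regulators and 65.0% of the citric acid cycle genes passed there in either direction, beside 60.3% of all genes. In FpB6CBA against FpB6D2 the ribosomal list went the other way, with 21 higher and 34 lower (median -0.10), beside 31.0% and 29.3% of all genes. Of 32 assembly factors outside the rule, 19 were higher and 5 lower in FpB6D2 than in NmB6D2 (median 0.21). The copper chaperone gene Cox19 was higher there by 1.01, and Timmdc1, a complex I assembly factor, was higher in R1 than in NmB6D2 by 1.39 (2.61-fold). Sco1, another copper chaperone, was under the filter value in NmB6D2 (3.66) and read 5.60 in R1.

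The 11 electron carriers and inner membrane proteins had 7 higher and 3 lower in FpB6D2 than in NmB6D2 (median 0.25). Nnt, which makes NADPH from the proton gradient and is known to be deleted in part in some C57BL6 substrains, averaged 7.20 in R1, 6.40 in OpB6D2, 6.28 in NmB6D2, 5.89 in FpB6CBA and 5.47 in FpB6D2. It was lower in FpB6D2 than in OpB6D2 by 0.93 ± 0.15 (adjusted p = 1.6e-04). Dhodh, which feeds electrons from pyrimidine synthesis, was higher in FpB6CBA than in FpB6D2 by 1.03.

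The 18 tested regulators of mitochondrial gene expression were split, 7 higher and 7 lower in FpB6D2 against NmB6D2 (median 0.03). The coactivator gene Ppargc1b was lower there by 1.13 (2.19-fold) and higher in FpB6CBA than in FpB6D2 by 1.69 (3.23-fold), while Myc (-2.43) and Mterf3 (-1.10), a mitochondrial transcription factor, were lower in FpB6CBA. Of 20 genes of pyruvate dehydrogenase and the citric acid cycle, 7 were higher and 6 lower in FpB6D2 than in NmB6D2 (median -0.03), and 2 were higher and 13 lower in R1 than in NmB6D2 (median -0.31), beside 31.0% and 31.9% of all genes. Among them the X-linked genes Idh3g (1.04 in FpB6D2 against NmB6D2) and Pdha1 (-1.01 in FpB6CBA against FpB6D2) passed the 2-fold minimum, together with Pdk1.

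Other probe sets of the same members were compared in direction. Among those well enough expressed and only for members past an adjusted p of 0.05, which leaves out Uqcr10 in FpB6CBA against FpB6D2, 45 of 49 did so for FpB6D2 against NmB6D2, 31 of 33 for OpB6D2 against NmB6D2, 34 of 45 for FpB6D2 against OpB6D2, 35 of 40 for FpB6CBA against FpB6D2 and 29 of 34 for R1 against NmB6D2. Another 10 probe sets with a member's name are annotated to several genes and lie outside the rule. One of them, shared by Ndufa11 and Ndufa11b, read 11.08 in FpB6D2, 10.99 in OpB6D2, 10.72 in FpB6CBA, 10.44 in R1 and 10.38 in NmB6D2.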

How the data were processed

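Total RNA of 15 samples from 5 lines was hybridised to Affymetrix mouse genome arrays. Each deposited value is a log2 intensity of a probe set on an array, made by the authors with RMA and the affy package per the submitters' processing notes. Versions, settings and the log base are not given in the sources used here, and the base was inferred from the range of 1.99 to 13.96. Nothing further was normalised. Probe sets were named through the platform annotation, with current symbols and chromosomes from RefSeq GRCm38.p6. Each gene took its probe set of highest mean, which gave 18193 genes, of which 12813 passed the filter of 3.864 on at least 3 arrays.

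limma 3.58.1 in R 4.3.3 was fitted with 1 mean per line over all 15 arrays, with empirical Bayes moderation. Its contrasts gave the 5 comparisons and a moderated F test, and a second limma fit on the 5 line means compared modes of origin. P-values were adjusted by Benjamini-Hochberg over all 12813 genes. Standard errors are the fit's. Folds involving a line mean under 3.864 are lower bounds against that value. On simulated data for OpB6D2 against NmB6D2 (12813 genes), 67 of 100 genes changed by 0.5 passed the adjusted p, 100 of 100 changed by 1.5 passed both criteria, and 9 of 12613 unchanged genes passed the adjusted p. The number of arrays limits the precision.

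The members, gene lists and tests were chosen with earlier results of these data known. Named are members called in any comparison, the 3 widest and the narrowest member per complex, X-linked and tissue-restricted members with their partners, Cox7a2l, the Sdh subunits, the subunit c genes, up to 4 called genes per pathway list, and Nnt. The other members and genes named were chosen after their values were seen. Alternatives were other filters, probe set rules, scalings, variance models, lines in the fit, fold minimums and member definitions, a replicate block, and leaving out each array or line. Plots used matplotlib 3.10.9.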

Additional observations from a re-analysis of the deposited data

How the results depend on the processing

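Over the counts and medians of the members, 495 values under alternatives kept their direction and size and 29 moved. Members called between OpB6D2 and NmB6D2 were 1 in place of 2 with a filter of 6, with median centring, on the 13 numbered arrays without the block (chosen after seeing the data), and without single arrays (range 1 to 2), in each case through Cox7b2. With a 1.5-fold minimum the called members were 6 in OpB6D2 against NmB6D2, 6 in FpB6D2 against OpB6D2, 9 in FpB6CBA against FpB6D2 and 8 in R1 against NmB6D2, which follows from the lower minimum. Called members in FpB6CBA against FpB6D2 ranged from 3 to 5 without single arrays, and without assembly factors R1 against NmB6D2 called 1. Median centring gave medians of 0.05 (OpB6D2 against NmB6D2), 0.24 (FpB6D2 against NmB6D2), 0.21 (FpB6D2 against OpB6D2), 0.01 (FpB6CBA against FpB6D2) and -0.06 (R1 against NmB6D2). The mean of all probe sets gave 0.18 for FpB6D2 against NmB6D2 and -0.01 for R1 against NmB6D2, where quantile normalisation gave 0.03, subunits only -0.01 and single arrays left out -0.02 to 0.01. For FpB6CBA against FpB6D2 the median was 0.05 to 0.08 without single arrays and 0.08 on the numbered arrays without the block. The causes were not tested. The titles' replicate numbers did not pair the arrays (12 same-numbered pairs, correlations of -0.181 to 0.127, 1 over 0.1). With the replicate block, 18 members passed the adjusted p in OpB6D2 against NmB6D2 and 25 in FpB6D2 against OpB6D2, and the medians were 0.08 for FpB6CBA against FpB6D2 and -0.02 for R1 against NmB6D2. Of the differences of called members, 287 kept their side of the threshold under alternatives, and 5, all of Cox7b2 in OpB6D2 against NmB6D2 (0.93 to 1.10), did not. Probe sets near 3.864, such as those of Cox7b2 and Cox7c, give weak signal over background.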
